A study of Mus musculus with 14 samples.

Results

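Replication-dependent histone genes were compared between mouse libraries with the labels Qk-KO and WT, from corpus callosum and in cultured oligodendrocytes. The genes were taken by symbol, as the 71 entries named Hist1h to Hist4h in both of the authors' deposited tables, out of 46983 genes in each table. Of these, 52 had a mean of at least 10 normalized counts in callosum and 58 did in culture, and all 52 were also among the 58. By histone type, the 58 comprised 5 H1, 12 H2A, 18 H2B, 10 H3 and 13 H4 genes. The GENCODE M21 annotation of GRCm38 lists 65 of the 71 as protein coding, 2 as processed pseudogenes, 1 as an unprocessed pseudogene and 1 as a lincRNA, and 2 identifiers had no match there. The Hist1 group lies on chromosome 13, the Hist2 group on chromosome 3, the Hist3 group on chromosome 11 and Hist4h4 on chromosome 6.

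Qk encodes quaking, an RNA-binding protein of myelinating glia. In the tissue groups, all mice were of a FvB/C57BL6 hybrid strain, carried Plp-CreERT2 and were given tamoxifen when 8 weeks old, 4 days before the callosum was dissected. The 4 mice labelled Qk-KO were QKLoxP/LoxP and the 4 labelled WT were QKLoxP/+, so the controls also carried Cre, a floxed allele and the drug. The Plp promoter drives this tamoxifen-inducible Cre recombinase, which limits recombination to cells that use that promoter. In the culture groups, neural stem cells were differentiated toward oligodendrocytes in Neurobasal medium with B-27, GlutaMAX, IGF-1 at 100 ng/ml and the thyroid hormone T3 at 50 ng/ml. There were 3 culture libraries per genotype, 1 each from passages 7, 12 and 13. The descriptions carry 40HT for every culture library labelled Qk-KO and EtOH for every one labelled WT, so agent and genotype cannot be told apart. The descriptions also tie each 40HT library to 1 EtOH library by a shared number and passage, and the deposited fit has no term for these pairs, so the culture calls do not use them. Nothing in the labels says that the cultures were separate isolates, so p-values in culture measure only the spread between these samples.

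Replication-dependent histone genes supply the core histones H2A, H2B, H3 and H4 and the linker histone H1 that package newly copied DNA. They lie in clusters, lack introns in most cases, and are transcribed mainly in S phase, when DNA is replicated. Their mRNAs are the known exception to polyadenylation among metazoan mRNAs: cleavage after a conserved stem-loop ends them, and the stem-loop binding protein Slbp escorts them through processing, translation and decay. A subset of the genes is also known to give polyadenylated transcripts in differentiated cells. Mature oligodendrocytes have left the cell cycle, whereas their precursors and neural stem cells divide.

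The Qk gene itself did not fall. In culture its fitted level was 1972 CPM, computed from the fitted counts of each library, in libraries labelled WT and 3277 CPM in those labelled Qk-KO, a rise of 0.66 ± 0.14 (log2 change ± SE, adjusted p = 4.19e-05) per the authors' deposited table. In callosum it was 713 and 907 CPM, and the change of 0.32 ± 0.12 per the authors' deposited table did not pass (adjusted p = 0.162). A count over the whole gene does not resolve the floxed segment, so the libraries are called by their labels throughout. Oligodendrocyte markers were present in both systems, but in culture labelled WT the 5 astrocyte markers summed to 10579 CPM against 2730 CPM for the 6 oligodendrocyte markers. The sums of fitted counts ran from 1.50e+07 to 2.77e+07 per callosum library and from 3.83e+07 to 4.89e+07 per culture library. The deposited library columns hold fitted means, which within a genotype are the same at every gene up to 1 scaling factor. Each gene therefore has 1 level per genotype, spread between replicates enters only through the deposited standard errors, and how many single libraries showed a direction could not be counted. Transcripts without a poly(A) tail were in both sets of libraries, with Rn7sk, an abundant small nuclear RNA, at 20223 CPM in culture labelled WT.

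The stem-loop that ends histone mRNAs is printed for 10 genes that span the range of changes in culture. The pattern searched was GGNNNTNNNNANNNCC with 6 complementary base pairs between its arms, and 44 of the 69 genes with a GENCODE M21 transcript held it, against 0.877% of 141690 transcripts of other genes. Only annotated bases were searched, so a gene without a match may still have a stem-loop past its annotated end. The capitals mark the 16 bases of the stem-loop, and the lower-case letters are the bases on either side, on the transcribed strand.
Hist1h1c, chr13:23739507-23739532, plus strand: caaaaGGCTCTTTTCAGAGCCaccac
Hist1h1d, chr13:23555782-23555807, plus strand: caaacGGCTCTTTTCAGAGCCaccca
Hist1h2ap, chr13:21833026-21833049, minus strand: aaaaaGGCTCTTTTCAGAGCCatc
Hist1h2bk, chr13:22036295-22036320, plus strand: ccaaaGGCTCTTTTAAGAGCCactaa
Hist1h3b, chr13:23752815-23752840, plus strand: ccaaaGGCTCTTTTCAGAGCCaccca
Hist1h3g, chr13:23535884-23535909, plus strand: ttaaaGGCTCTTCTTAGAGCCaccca
Hist1h4a, chr13:23760795-23760820, minus strand: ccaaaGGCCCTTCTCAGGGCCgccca
Hist1h4h, chr13:23531453-23531478, plus strand: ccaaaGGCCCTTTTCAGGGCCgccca
Hist2h4, chr3:96262934-96262959, minus strand: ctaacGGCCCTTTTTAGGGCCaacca
Hist4h4, chr6:136803993-136804018, minus strand: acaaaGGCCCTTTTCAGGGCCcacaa
The coordinates are those of GRCm38. The 44 genes used 8 distinct stem-loops. The form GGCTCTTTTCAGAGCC was found in 3 H1, 10 H2A, 6 H2B and 5 H3 genes and in no H4 gene. H4 genes instead carried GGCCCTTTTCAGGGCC in 7 cases, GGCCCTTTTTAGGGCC in 2, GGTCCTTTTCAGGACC in 2 and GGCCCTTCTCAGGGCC in 1. Hist1h1c and Hist1h1d thus share 1 stem-loop sequence, and so do Hist1h4h and Hist4h4.

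In culture, histone transcripts of all 5 types were higher in the libraries labelled Qk-KO. Of the 58 genes, 39 rose, 0 fell and 19 did not pass, at an adjusted p under 0.05 from the DESeq2 Wald statistics per the authors' deposited table. Among all 17503 genes tested there, 13.3% rose, 15.2% fell and 28.6% changed in either direction. The same shares are the background for the culture counts by type, cluster and sequence class below. The log2 change was positive for 56 of the 58 genes and negative for 2, Hist1h1c and Hist2h3c2, whose signs turned when each library was scaled by its fitted sum. Its median was 0.94, a 1.91-fold difference, within a range of -0.06 to 1.91, beside a median of 0.01 over all genes tested. Summed over the 71 genes, the fitted level was 785 CPM in libraries labelled WT and 1385 CPM in those labelled Qk-KO. Asked for an absolute log2 change of at least 1 as well, 24 genes passed. Among the 17503 genes tested, 1870 with a mean of at least 10 passed that rule, 764 of them higher. Against a Student distribution with 4 residual degrees of freedom in place of the normal one, 0 of the 58 and 0 of all genes tested passed, whereas 43 of the 58 had an unadjusted p under 0.05 from DESeq2.

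**Figure D1:**
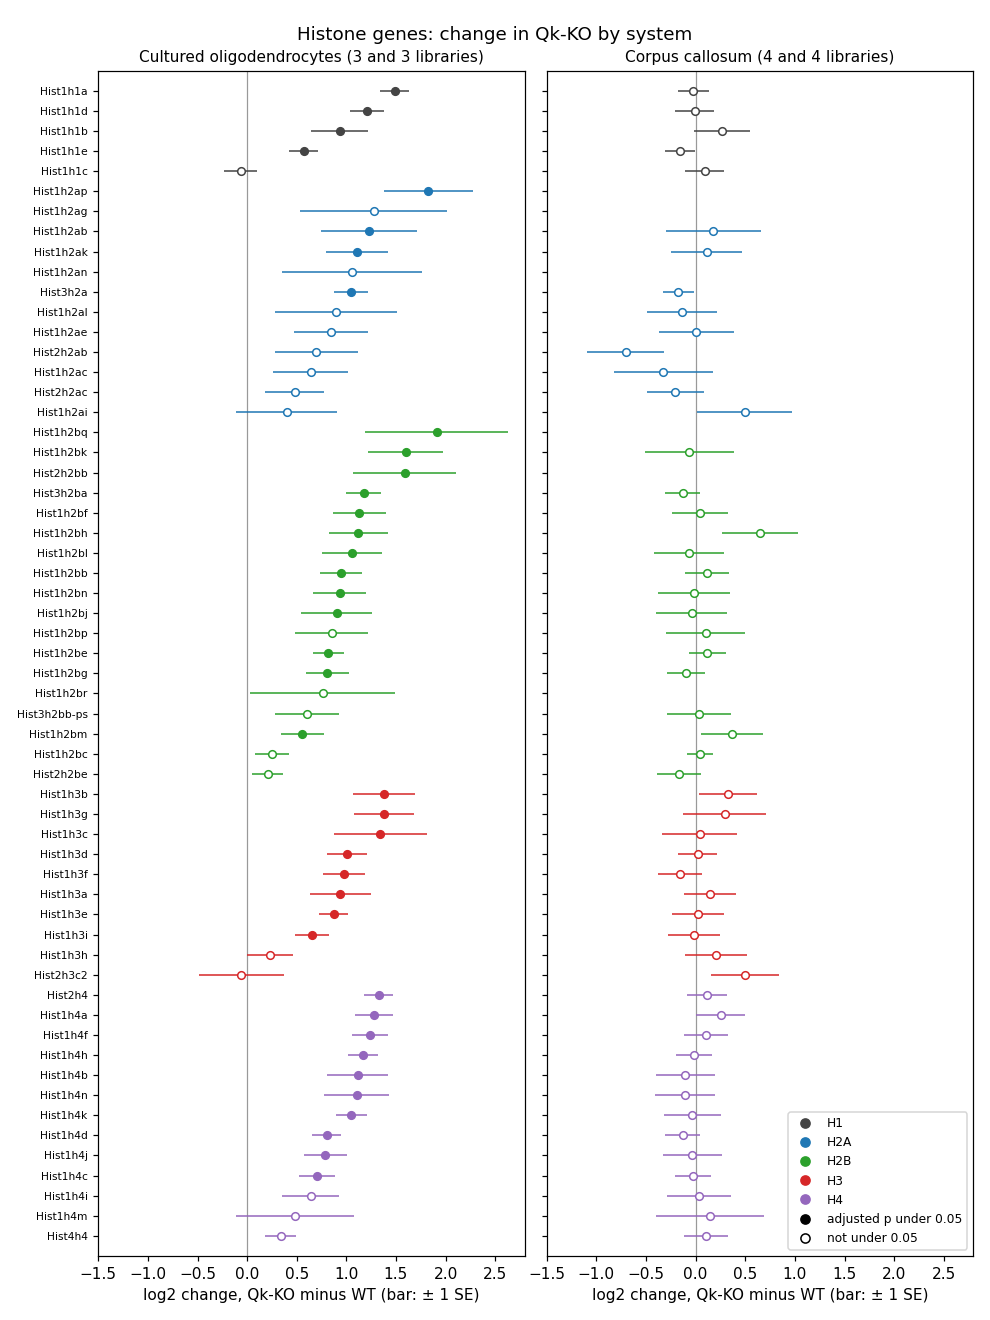
Log2 change (labelled Qk-KO minus labelled WT, x axis) of each histone gene with a mean of at least 10, in culture (left, 58 genes) and callosum (right, 52 genes), ordered by type and by the change in culture. Points are the deposited estimates, bars are 1 standard error, colours give the histone type and filled points have an adjusted p under 0.05; 39 culture points and 0 callosum points are filled.

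Linker histones rose in 4 of 5 genes, with a median log2 change of 0.93, and their summed level went from 273 to 436 CPM. Hist1h1a (ENSMUSG00000049539.2, chr13:23763666-23764406, plus strand) had the smallest p of all histone genes. Its fitted level was 13.9 CPM in libraries labelled WT and 41.2 CPM in those labelled Qk-KO, a rise of 1.49 ± 0.15 per the authors' deposited table (95% interval 1.19 to 1.78, adjusted p = 3.24e-21). Hist1h1d went from 29.1 to 70.9 CPM, a rise of 1.21 ± 0.18 per the authors' deposited table (adjusted p = 1.73e-10). Hist1h1e, the histone gene with the most counts in culture, went from 155 to 243 CPM and rose by the smaller 0.57 ± 0.15 per the authors' deposited table. The Hist1h1b rise was 0.93 ± 0.29 per the authors' deposited table, from 5.18 to 10.4 CPM. Hist1h1c lay apart from the other linker histones. It was at 69.7 and 70.3 CPM, and the authors' deposited table gives a change of -0.06 ± 0.17 (95% interval -0.40 to 0.27), which became 0.01 when each library was scaled by its fitted sum. That interval lies below the estimates of the 4 linker histones that rose. Hist1h1e overlaps Hist1h2be on the same strand in GENCODE M21, so reads of the pair may have been shared between them.

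Of 12 H2A genes, 4 rose, with a median over the 12 of 0.97. All 12 estimates were positive, from 0.40 to 1.83. Each of the 12 genes overlaps a gene on the opposite strand in GENCODE M21, such as Gm44466 at Hist1h2ap. The strand setting of the counting is not given, and the effect of these overlaps on the H2A counts was not tested. H2A genes had the fewest counts, with a summed level of 20.2 CPM in libraries labelled WT and 41.5 CPM in those labelled Qk-KO, and their median SE of 0.43 exceeded that of every other type. Hist3h2a, with the most counts of them, went from 7.90 to 17.2 CPM and rose by 1.04 ± 0.17 per the authors' deposited table (adjusted p = 3.29e-08); it overlaps Trim17 on the same strand. Hist1h2ap went from 0.409 to 1.53 CPM, a rise of 1.83 ± 0.44 per the authors' deposited table (adjusted p = 0.000329). The other genes that rose were Hist1h2ak, by 1.10 ± 0.31, and Hist1h2ab, by 1.22 ± 0.48, per the authors' deposited table. Hist1h2al, annotated as a processed pseudogene and at 2.95 and 5.78 CPM, had 0.89 ± 0.62 per the authors' deposited table and did not pass (adjusted p = 0.301).

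H2B genes rose in 13 of 18 cases, with a median of 0.92, and their sum went from 133 to 212 CPM. Hist3h2ba had the smallest p among them, at 4.84 and 11.5 CPM, a rise of 1.17 ± 0.18 per the authors' deposited table (adjusted p = 1.02e-09). Hist1h2be rose by 0.82 ± 0.16, Hist1h2bb by 0.95 ± 0.21 and Hist1h2bf by 1.13 ± 0.26 per the authors' deposited table. Hist1h2bk, at 1.12 and 3.59 CPM, rose by 1.60 ± 0.38 per the authors' deposited table (adjusted p = 0.000192). Rises of 0.81 for Hist1h2bg, 0.93 for Hist1h2bn, 1.06 for Hist1h2bl and 1.12 for Hist1h2bh also passed per the authors' deposited table, as did Hist1h2bm at 0.56 and Hist1h2bj at 0.90. Hist1h2bq passed at 1.91 ± 0.72 on a mean of only 12.1 counts per the authors' deposited table. The symbol Hist2h2bb has 2 entries: the one that passed, at 1.59 ± 0.52 on a mean of 21.1 counts per the authors' deposited table, is annotated as a lincRNA (ENSMUSG00000050936.5), and the protein-coding one (ENSMUSG00000105827.1) is listed at 0 in both tables. The 13 H2B genes that rose therefore include 1 lincRNA entry. A pair of H2B genes with many counts did not pass. Hist1h2bc, the one with the most, at 63.4 and 79.5 CPM, had 0.25 ± 0.17 (adjusted p = 0.294), and Hist2h2be, at 9.40 and 11.4 CPM, had 0.21 ± 0.16 (adjusted p = 0.365) per the authors' deposited table.

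H3 genes rose in 8 of 10 cases with a median of 0.96, and their sum went from 63.2 to 124 CPM. Hist1h3e, with the most counts, was at 24.4 and 47.0 CPM and rose by 0.87 ± 0.15 per the authors' deposited table (adjusted p = 4.85e-08). Hist1h3f went from 11.3 to 23.5 CPM and Hist1h3d from 6.46 to 13.7 CPM, with rises of 0.98 ± 0.21 and 1.01 ± 0.20 per the authors' deposited table. Hist1h3b and Hist1h3g had the largest H3 changes, both 1.38, with SEs of 0.31 and 0.30 per the authors' deposited table. Hist1h3c at 1.34, Hist1h3a at 0.94 and Hist1h3i at 0.65 completed the H3 genes that passed per the authors' deposited table. Hist1h3h, at 2.59 and 3.20 CPM, had 0.23 ± 0.23 and did not pass, per the authors' deposited table, nor did Hist2h3c2, at 1.14 and 1.15 CPM, with -0.06 ± 0.43, or 0.02 when scaled by fitted sums.

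H4 genes rose in 10 of 13 cases, had the highest median by type, 1.05, and went in sum from 295 to 571 CPM. Hist2h4, outside the Hist1 cluster, had the smallest p among them, at 19.8 and 52.4 CPM, a rise of 1.32 ± 0.15 per the authors' deposited table (adjusted p = 6.52e-17). Hist1h4h went from 30.5 to 72.6 CPM and rose by 1.17 ± 0.15 per the authors' deposited table (adjusted p = 2.58e-13). Hist1h4a went from 16.7 to 42.6 CPM and rose by 1.28 ± 0.19 per the authors' deposited table. Hist1h4d, the H4 gene with the most counts, at 122 and 225 CPM, rose by 0.80 ± 0.14 per the authors' deposited table. Rises of 1.24 for Hist1h4f, 1.11 for Hist1h4b, 1.10 for Hist1h4n, 1.05 for Hist1h4k, 0.79 for Hist1h4j and 0.71 for Hist1h4c also passed per the authors' deposited table. Hist1h4b overlaps the gene 4930558J22Rik on the opposite strand, and the strand setting of the counting is not given in the sources used here. Hist4h4, the only gene of the Hist4 group, was at 40.8 and 54.4 CPM, and its change of 0.34 ± 0.15 did not pass, per the authors' deposited table (adjusted p = 0.0818). Hist1h4i had 0.64 ± 0.29 (adjusted p = 0.0789) and Hist1h4m 0.48 ± 0.60 per the authors' deposited table.

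By cluster, 35 of 48 Hist1 genes, 2 of 6 Hist2 genes, 2 of 3 Hist3 genes and 0 of 1 Hist4 genes rose in culture. Among all genes tested in culture, 13.3% rose, and the classes of few genes say little against that share. The medians were 0.94 for Hist1, 0.59 for Hist2 and 1.04 for Hist3. Levels per kilobase of exon were compared over the 37 culture genes whose gene model has the same version in GENCODE M21. This leaves out Hist1h1e and Hist1h4d, the histone genes with the most counts in culture, so the ranks hold among the 37 only. In libraries labelled WT, Hist1h1c ranked first at 44.7 CPM per kb, followed by Hist1h4k at 34.0 and Hist1h4a at 30.9. In those labelled Qk-KO, Hist1h4a ranked first at 79.0 CPM per kb and Hist1h4k had 74.3, while Hist1h1c ranked 5 at 45.1. These levels carry no error of their own, because the columns are fitted means.

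**Figure D2:**
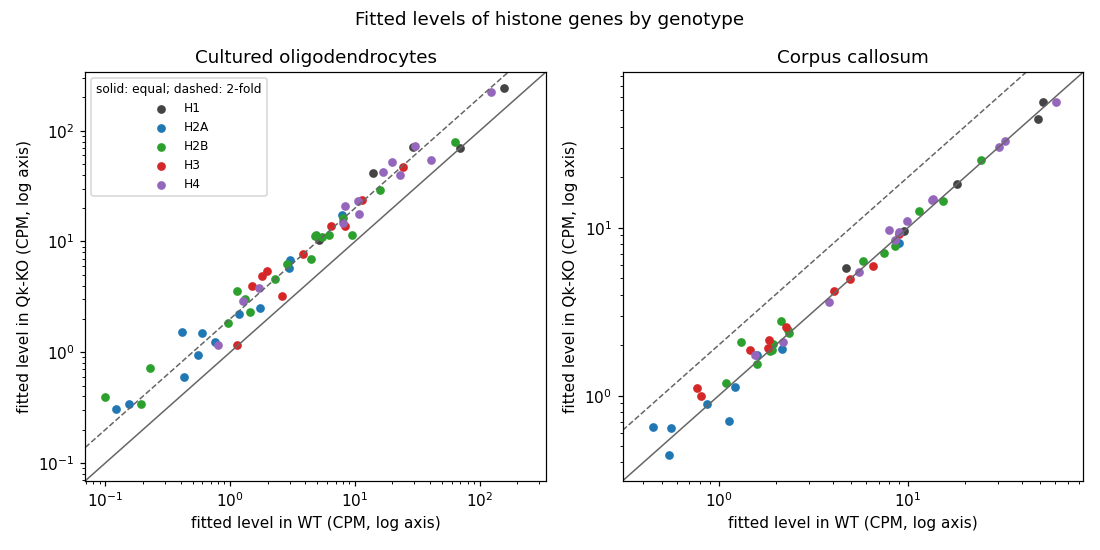
Fitted level of each histone gene in libraries labelled WT (x axis) against those labelled Qk-KO (y axis), in CPM on log axes, for culture (left) and callosum (right), with colours for histone type. The solid line marks equal levels and the dashed line a 2-fold difference; the culture points lie mostly along the dashed line, with Hist1h1c at 69.7 and 70.3 CPM on the line of equality, and the callosum points lie around the solid line.

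In callosum, no histone gene passed. The count was 0 of 52 by DESeq2 per the authors' deposited table. Among the 19935 genes tested there, 2.09% rose, 0.231% fell and 2.32% changed in either direction. None of the 52 had an unadjusted p under 0.05, and the smallest adjusted p was 0.716, for Hist2h2ab. The log2 change was positive for 28 genes and negative for 24, with a median of 0.02 and a range of -0.71 to 0.64, beside -0.01 over all genes tested. The summed fitted level of the 71 genes was 475 CPM in libraries labelled WT and 479 CPM in those labelled Qk-KO. Medians by type lay between -0.14 for H2A and 0.09 for H3.

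The callosum values bounded the genes with many counts. Hist1h1a was at 9.59 and 9.58 CPM, with -0.02 ± 0.16 per the authors' deposited table (95% interval -0.33 to 0.28). Hist1h4d, with the most counts in callosum, at 60.6 and 56.2 CPM, had -0.13 ± 0.18 per the authors' deposited table. Hist1h1c was at 51.8 and 56.0 CPM with 0.09 ± 0.20, and Hist1h1e at 48.8 and 44.4 CPM with -0.16 ± 0.15, per the authors' deposited table. Hist1h2bc, Hist1h4h and Hist1h4c had 0.04 ± 0.13, -0.02 ± 0.18 and -0.02 ± 0.18 per the authors' deposited table. The most negative estimate was Hist2h2ab at -0.71 ± 0.39 and the most positive Hist1h2bh at 0.64 ± 0.38 per the authors' deposited table, both on levels of at most 2.08 CPM. Callosum is mostly a tissue of non-dividing cells, and in bulk samples fewer cells of a type and less RNA per cell cannot be told apart.

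The difference between the systems was tested gene by gene, with a z test on the deposited changes, which share no library. Those changes look shrunken toward 0 at low counts, and the z test takes no account of it. Of the 52 genes tested in both tables, 22 had a more positive change in culture and 0 a more negative one, at a Benjamini-Hochberg adjusted p under 0.05 over 16601 genes. Among all genes tested, 9.84% were more positive in culture and 11.7% more negative, 21.5% in all. The median difference over the 52 genes was 0.94, beside 0.02 over all genes, and 49 of the 52 were positive. By the z test, the difference was 1.51 ± 0.22 for Hist1h1a (adjusted p = 1.55e-10), 1.22 ± 0.23 for Hist3h2a (3.83e-06), 1.30 ± 0.25 for Hist3h2ba (4.46e-06) and 1.19 ± 0.23 for Hist1h4h (7.83e-06). Hist1h1c differed by -0.15 ± 0.26, which did not pass (z test, adjusted p = 0.752). The count was 13 at an adjusted p under 0.01 and 10 against a Student distribution with 10 degrees of freedom. Over all genes with a mean of at least 10 in both systems, 2348 and 1962 passed at these settings. Of those, 946 and 772 were more positive in culture.

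Genes were also grouped by the distance from the stem-loop to the annotated transcript end. In culture, 14 of 18 genes whose longest transcript with a stem-loop ran 100 bases or fewer past it rose, with a median of 1.15. Of those with a longer tail, 14 of 20 rose, with a median of 0.81. Among 18 genes with no stem-loop in their annotated transcripts, Hist1h1a among them, 9 rose, with a median of 0.91. Their longest transcripts ran from 312 bases for Hist1h4k to 2620 for Hist2h2be. A gene model that ends before the stem-loop gives no match, so this class does not show that the genes lack one. Across the 38 genes with a stem-loop, Spearman's rho between tail length and log2 change was -0.41 in culture, and it was -0.25 across 36 genes in callosum. The tail lengths are those of GENCODE M21, where 14 of the 38 gene models, Hist1h4h and Hist1h1d among them, have another version than in the tables. Over the 24 with the same version, rho in culture was -0.42, with 10 of 14 short-tailed and 6 of 10 long-tailed genes risen (medians 1.12 and 0.83). Over the 22 such genes in callosum rho was -0.04. These are descriptions across genes, which share libraries, sequence and position and are not independent. The genes with stem-loops printed above sit at both ends: Hist1h2ap has 3 annotated bases after the stem-loop, Hist1h4h has 46, Hist1h1c has 840 and Hist4h4 has 2445, while Hist2h4, with 1257, and Hist1h1d, with 4884, rose as the short ones did.

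**Figure D3:**
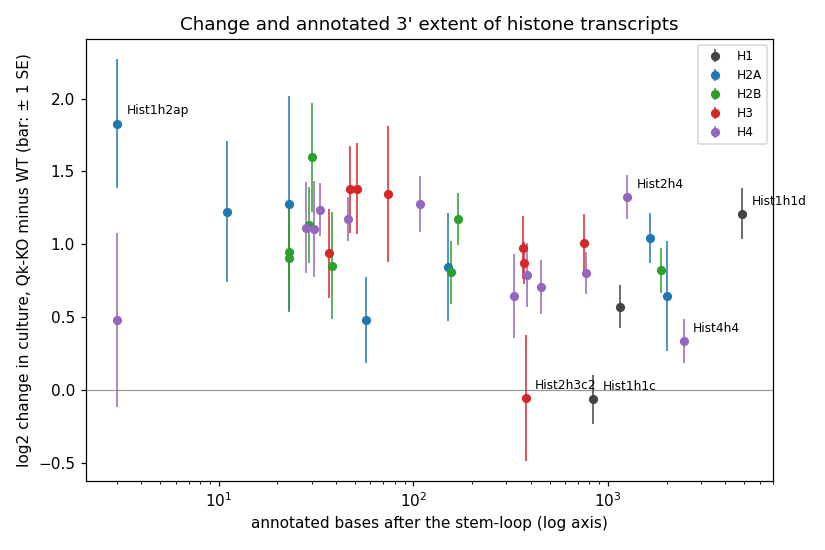
Log2 change in culture (labelled Qk-KO minus labelled WT, y axis, bars 1 standard error) against the number of annotated bases after the stem-loop (x axis, log scale) for 38 histone genes, coloured by type. The genes with short tails lie mostly above 0.8, the estimates under 0 are those of Hist1h1c and Hist2h3c2, and Hist2h4 and Hist1h1d combine long tails with high values.

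Histone genes resemble each other in sequence, so a read may match more than 1 gene. The median share of a gene's 50-base windows found in a transcript of any other annotated gene, on either strand and with overlapping genes included, was 55.0% over the 69 with a transcript, from 1.13% for H1 to 73.2% for H2A. All 5 genes whose windows were shared in full were listed at 0 in both tables. In culture, 16 of 26 genes with over 50% of shared windows rose, with a median of 1.06, and 21 of 30 with fewer shared windows rose, with a median of 0.89. Of the 4 linker histones that rose, Hist1h1a and Hist1h1b shared 0% of their windows, Hist1h1d 2.25% and Hist1h1e 32.0%. Hist1h2bq and Hist1h2ap, the genes with the largest changes in culture, shared 97.3% and 93.1%, so few of their windows are their own. How multiply mapping reads were counted is not given in the sources used here.

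H2A and H2B genes often sit head to head around a shared upstream region, and 13 such pairs had starts within 1000 bases, 173 to 306 bases apart. Both genes had a mean of at least 10 in culture in 9 pairs, and both estimates were positive in all 9. Both passed in 1 pair, Hist1h2ak and Hist1h2bn, and 1 of the genes passed in 5 pairs. The median absolute difference within a pair was 0.37. In the authors' deposited table, Hist3h2a rose by 1.04 while its partner, the pseudogene Hist3h2bb-ps, had 0.60 ± 0.32. Hist2h2ac and Hist2h2be, partners on chromosome 3, had 0.48 ± 0.30 and 0.21 ± 0.16 per the authors' deposited table.

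Upstream sequences from RefSeq (GRCm38.p6) matched 55 of the genes. The 250 bases before the start are printed for Hist1h1a, Hist1h2bk and Hist1h4a, which rose in culture, and for Hist1h1c, which did not pass. Capitals mark matches on either strand to the TATA box TATAAA, the CCAAT box, the octamer ATTTGCAT of H2A and H2B promoters, and the H1 promoter element AAACACA.
Hist1h1a, chr13:23763418-23763667, plus strand: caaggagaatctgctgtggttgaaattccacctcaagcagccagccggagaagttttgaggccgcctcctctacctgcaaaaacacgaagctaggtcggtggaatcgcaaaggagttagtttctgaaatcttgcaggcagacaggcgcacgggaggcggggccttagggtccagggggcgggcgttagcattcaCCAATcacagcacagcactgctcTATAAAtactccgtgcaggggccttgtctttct
Hist1h2bk, chr13:22035571-22035820, plus strand: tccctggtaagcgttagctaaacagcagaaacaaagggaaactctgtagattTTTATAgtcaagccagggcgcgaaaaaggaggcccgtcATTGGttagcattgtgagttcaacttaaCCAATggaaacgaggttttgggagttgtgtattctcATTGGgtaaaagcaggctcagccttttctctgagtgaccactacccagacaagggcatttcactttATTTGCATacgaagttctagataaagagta
Hist1h4a, chr13:23761250-23761499, minus strand: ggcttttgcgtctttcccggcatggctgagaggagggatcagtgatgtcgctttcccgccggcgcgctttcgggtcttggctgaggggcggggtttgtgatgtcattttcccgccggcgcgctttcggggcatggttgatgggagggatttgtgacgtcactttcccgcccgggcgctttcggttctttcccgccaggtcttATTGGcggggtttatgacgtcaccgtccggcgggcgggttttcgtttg
Hist1h1c, chr13:23738557-23738806, plus strand: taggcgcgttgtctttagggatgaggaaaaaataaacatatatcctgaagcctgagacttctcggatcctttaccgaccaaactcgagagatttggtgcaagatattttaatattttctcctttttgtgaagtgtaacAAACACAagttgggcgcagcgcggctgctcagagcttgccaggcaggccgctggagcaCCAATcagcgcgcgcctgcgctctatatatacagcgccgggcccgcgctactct
Each motif was searched on both strands over 300 bases, 250 before and 50 after the start, and matches to different motifs may overlap. Head-to-head H2A and H2B partners start 173 to 306 bases apart, so their windows overlap. The same site can therefore count for both genes of a pair. TATAAA was in 35 of 55 histone promoters (63.6%) and in 13.5% of 32754 promoters of other genes. CCAAT was in 83.6% against 37.3%, in every H1, H2A, H2B and H3 promoter matched but in only 3 of 12 H4 promoters. ATTTGCAT was in 20% against 1.70%, in 7 of 16 H2A and 4 of 13 H2B promoters and in no other type. AAACACA was in 5 of 6 H1 promoters, Hist1h1a being the exception, against 7.17% of other promoters. Presence did not divide the genes that rose from the rest. In culture 21 of 30 genes with TATAAA rose and 11 of 16 without it. With CCAAT 26 of 37 rose and without it 6 of 9, and these 9 were all H4 genes. For ATTTGCAT the counts were 5 of 8 with and 27 of 38 without, and for AAACACA 4 of 5 and 28 of 41. A match is a description of these letters and not evidence of a bound site.

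Replication-independent variants are made from polyadenylated mRNAs, also outside S phase. In culture, 6 of 11 tested genes for them rose and 0 fell, with a median of 0.47. Among all genes tested in culture, 13.3% rose and 15.2% fell. The macroH2A genes H2afy2, from 29.3 to 63.6 CPM, and H2afy rose by 1.04 ± 0.15 and 0.59 ± 0.13 per the authors' deposited table. The linker variants H1fx and H1f0 rose by 0.79 ± 0.19 and 0.47 ± 0.15, and H2afz and the H3.3 gene H3f3b by 0.43 ± 0.13 and 0.44 ± 0.15, per the authors' deposited table. The other H3.3 gene, H3f3a, had 0.27 ± 0.15 and did not pass, per the authors' deposited table (adjusted p = 0.173). None of the 11 passed in callosum, where 2.32% of all genes tested changed in either direction.

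Genes for processing histone pre-mRNA and for the histone locus body moved both ways in culture, with 5 of 15 risen, 2 fallen and a median of 0.10, where 13.3% of all genes tested rose and 15.2% fell. Slbp rose by 0.43 ± 0.16, from 20.9 to 29.7 CPM, per the authors' deposited table. Cpsf2, a subunit of the cleavage complex, rose by 0.48 ± 0.12, and Casp8ap2, a locus body protein, by 0.45 ± 0.16, per the authors' deposited table. Coil, the coilin of Cajal bodies, and Srrt, which joins the cap-binding complex, rose by 0.48 ± 0.16 and 0.40 ± 0.13 per the authors' deposited table. Cstf2, a cleavage factor also used at polyadenylated genes, fell by 0.92 ± 0.13 from 187 to 104 CPM, and Lsm10, of the U7 particle, fell by 0.74 ± 0.17, per the authors' deposited table. Npat, the coactivator of histone transcription, had -0.02 ± 0.13 and did not pass, per the authors' deposited table. Of 7 histone mRNA decay genes, 1 rose and 1 fell, near the shares of 13.3% and 15.2% among all genes tested in culture. The exonuclease Xrn1 rose by 0.84 ± 0.16 and the 3′ exonuclease Eri1 fell by 0.43 ± 0.15 per the authors' deposited table.

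Histone chaperones, which carry histones to DNA, rose in 7 of 16 genes and fell in 0, with a median of 0.30 in culture. The shares among all genes tested in culture were 13.3% risen and 15.2% fallen. Asf1b rose by 1.54 ± 0.42, and the chromatin assembly factor genes Chaf1b and Chaf1a by 1.08 ± 0.40 and 0.60 ± 0.23, per the authors' deposited table. Nasp, an H1 and H3 chaperone, rose by 0.43 ± 0.17 per the authors' deposited table. Ubn1, Atrx and Daxx of the replication-independent H3.3 pathways rose by 0.45, 0.48 and 0.38 per the authors' deposited table. In callosum, 0 of the 16 chaperone genes, 0 of 15 processing genes and 0 of 7 decay genes passed by DESeq2. There, 2.32% of all genes tested changed in either direction.

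Many of the cell-cycle genes listed were also higher in culture labelled Qk-KO, where 13.3% of all genes tested rose and 15.2% fell. Mitosis genes rose in 12 of 15 cases with a median of 0.91, and fell in 0. S-phase and replication genes rose in 10 of 30 cases with a median of 0.61, and fell in 0. The other 20 did not pass, and the lowest S-phase estimate was -0.20. E2f2, an S-phase transcription factor, rose by 2.01 ± 0.43 and Cenpe, a kinetochore motor, by 1.13 ± 0.25 per the authors' deposited table. The replication clamp gene Pcna, at 54.1 and 53.6 CPM, had -0.09 ± 0.13 and did not pass, per the authors' deposited table. In callosum, 0 of 30 S-phase genes and 0 of 14 mitosis genes tested passed, where 2.32% of all genes tested changed in either direction. Of the 10 non-polyadenylated RNAs other than histone mRNAs, 0 passed in culture, with a median of 0.11, and their sum was 29629 CPM in libraries labelled WT and 35422 CPM in those labelled Qk-KO. Rn7sk had 0.23 ± 0.12 per the authors' deposited table (adjusted p = 0.142).

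**Figure D4:**
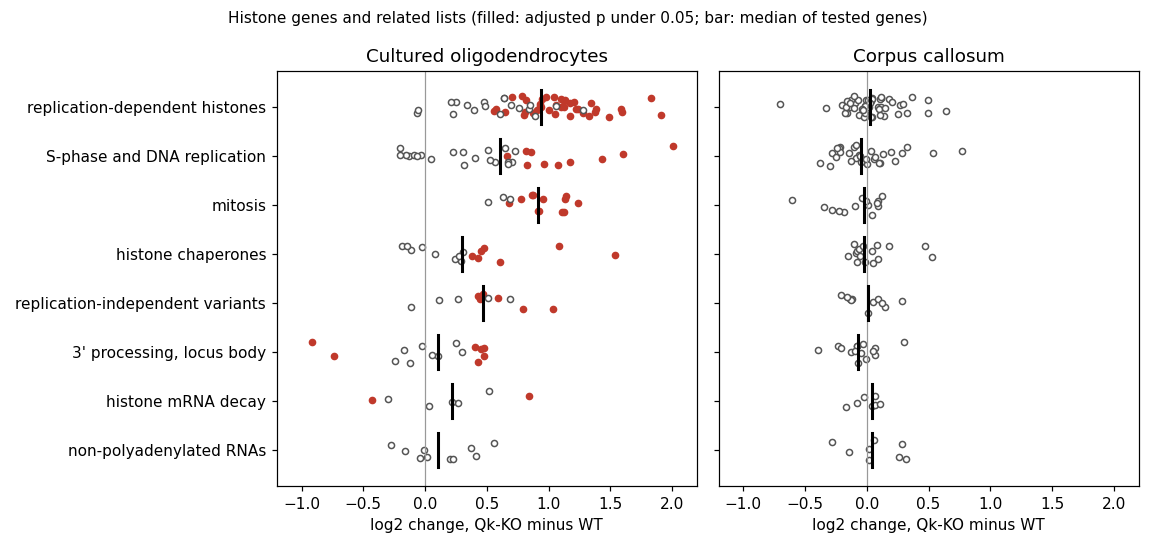
Log2 change (labelled Qk-KO minus labelled WT, x axis) of every tested gene in the histone set and 7 related lists, in culture (left) and callosum (right). Red filled points have an adjusted p under 0.05 and black bars are list medians; in culture the histone and mitosis medians are 0.94 and 0.91, and in callosum every median lies near 0.

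Markers of several cell types also moved in culture, where 13.3% of all genes tested rose and 15.2% fell. All 5 astrocyte markers fell, from a sum of 10579 to 2544 CPM, and all 5 neuron markers rose, from 734 to 1721 CPM. Of the 5 neural stem cell markers, 3 rose and 1 fell, from a sum of 737 to 1231 CPM, with Hes5 rising by 1.49 ± 0.21 per the authors' deposited table. Of the 5 precursor markers, 1 rose and 2 fell, and of the 6 oligodendrocyte markers 1 rose and 1 fell, from 2730 to 2125 CPM. Microglial markers summed to 2.41 and 0.748 CPM, with C1qa listed at 0. The part of these markers in the histone result was not tested. In callosum, where 2.09% of all genes tested rose and 0.231% fell, 2 of 5 astrocyte and 2 of 6 oligodendrocyte markers rose. There, 4 of 6 microglial markers rose, from a sum of 254 to 475 CPM. None of the 5 neuron, 5 precursor and 5 neural stem cell markers passed in callosum. Choroid plexus markers summed to 1947 and 1127 CPM with 0 of 3 passing, beside the histone sums of 475 and 479 CPM.

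Of the genes left out for a low mean, 8 were listed at 0 in callosum and 7 in culture. In culture, the gene just outside the minimum was Hist1h2ad, with a mean of 9.13 and a change of 0.07 ± 0.63, and the one just inside was Hist1h2ag, with 10.2 and 1.28 ± 0.74, per the authors' deposited table. In callosum they were Hist1h2ap, with a mean of 8.38 and 0.37 ± 0.47, and Hist1h2ac, with 10.04 and -0.33 ± 0.50, per the authors' deposited table.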

How the data were processed

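RNA was sequenced from 4 and 4 callosum libraries and 3 and 3 culture libraries. Upstream steps, per the submitters' processing notes, used FastQC, TopHat2 2.0.14, featureCounts and DESeq2 on the build mm10; their settings, the annotation and the strand mode were not given in the sources used here. The library columns the authors deposited are on a log2 scale, and a check of the values (within 1e-09) showed them to be fitted mean counts plus 1. The mean column the authors deposited is a signal of normalized counts, per the file headers. The deposited score is the log2 fold change over its standard error, and the deposited p-value columns give raw and adjusted p. The deposited direction, WT over Qk-KO, was turned. Fold changes look shrunken toward 0 at low counts.

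Calls used the deposited adjusted p under 0.05. Fitted CPM, 95% normal intervals and a two-sided z test of the difference between systems, checked on simulated data, were computed in Python 3.11.15 with scipy 1.17.1. The simulated noise was drawn from the deposited standard errors, so the check covers the computation and not whether those errors are right. Members and lists were chosen with earlier results of these data known. Named genes come from a rule: Qk, histone genes called in any comparison, the 3 with the highest mean per type and table, the 4 with the smallest p per list its highest gene that did not pass, and those beside the minimum mean. Hist1h3h, Hist1h4i, Hist1h4m, Hist2h2ab, Hist2h2be, Hist2h3c2, Hist3h2bb-ps, Npat, Casp8ap2, Chaf1a and Daxx were named after their values were seen. Alternatives were a threshold of 0.01, adjustment over every gene with a p-value, a Student reference, library-size scaling, other minimum means and a minimum fold.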

Additional observations from a re-analysis of the deposited data

Results flagged for a closer look

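The change between libraries labelled Qk-KO and WT differed between culture and callosum for 22 histone genes, by the z test of the difference. In each of them the change was more positive in culture. Among linker histones, the difference (log2 change in culture minus that in callosum) was 1.51 for Hist1h1a, 1.22 for Hist1h1d and 0.73 for Hist1h1e. Among H2A and H2B genes it was 1.22 for Hist3h2a, 1.30 for Hist3h2ba, 1.66 for Hist1h2bk, 1.09 for Hist1h2bf, 0.90 for Hist1h2bg, 0.83 for Hist1h2bb and 0.70 for Hist1h2be. Among H3 genes it was 1.13 for Hist1h3f, 0.99 for Hist1h3d and 0.85 for Hist1h3e. Among H4 genes it was 1.22 for Hist1h4b, 1.21 for Hist2h4, 1.21 for Hist1h4n, 1.19 for Hist1h4h, 1.13 for Hist1h4f, 1.08 for Hist1h4k, 1.02 for Hist1h4a, 0.93 for Hist1h4d and 0.73 for Hist1h4c. The systems also differ in tissue, agent, depth and number of libraries, and these cannot be told apart from each other here.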

How the results depend on the processing

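The culture count of 39 became 0 against a Student distribution and 24 with an absolute log2 change of at least 1. Over all genes with a mean of at least 10, 2328 rose as deposited, 0 against a Student distribution and 764 with that minimum change. The other culture counts ran from 32 at an adjusted p under 0.01 to 43 under library-size scaling, where 1547 and 3044 of all such genes rose. The count of 22 genes that differed between systems became 13 at an adjusted p under 0.01, 10 against a Student distribution and 14 with an absolute log2 difference of at least 1. Over all genes with a mean of at least 10 in both systems, 1626 were more positive in culture by the main rule. In the same order, 946, 772 and 697 were at the other settings. The causes of these shifts were not tested. The callosum count was 0 under each alternative run. The median in culture lay between 0.93 and 1.01, and that in callosum between -0.01 and 0.05. Scaling by fitted sums moved all changes by 0.08 in culture and 0.02 in callosum, and 6 estimates that had not passed changed sign: in culture Hist1h1c became 0.01 and Hist2h3c2 0.02, and in callosum Hist1h1d became 0.01, Hist1h2bn 0.01, Hist1h3i 0.01 and Hist1h4h 0.01.

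No paired analysis was possible because the deposited columns hold fitted means without replicate spread. The culture labels pair the libraries of the 2 groups, and the culture calls and the z test between systems take no account of it. For the same reason leaving out single libraries and a count test with edgeR were not run. H2A genes, with the lowest counts, had a median standard error of 0.43 in culture and 0.38 in callosum. Restricting tail lengths to unchanged gene models was chosen after seeing the data.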
